A study of Mus musculus with 10 samples.

Results

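The miR-29 family guide strands, miR-29a, miR-29b and miR-29c, were followed in 10 liver samples of FVB/N mice, 5 from wild-type mice (WT) and 5 from mice that overexpressed the coactivator PGC-1α in the liver (LivPGC-1α). The members were the probes whose array name equals miR-29a, miR-29b or miR-29c, with star strands left out. These are 3 of the 655 probes in the table. All mice were 4 months old, were kept on a standard diet and, by the study's results text and figure legends, were fasted before the livers were taken. LivPGC-1α mice carried human PGC-1α under an apolipoprotein E promoter construct that drives expression in hepatocytes, and WT mice lacked the transgene. The transgene was not measured, because a miRNA array has no probe for its mRNA. One bead array was hybridised per liver sample, and all arrays lay on 1 chip, with WT on positions 1 to 5 and LivPGC-1α on positions 6 to 10, so that chip position and genotype cannot be told apart. The labels number the livers without saying that each came from a separate mouse. If some shared an animal, the tests would cover technical spread alone.

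A miRNA hairpin gives a guide strand, which loads into the silencing complex, and a passenger strand, which is mostly degraded and is marked here by a star. The guide pairs with messenger RNAs mainly through its seed near the 5′ end. miR-29 guides are known as repressors of collagens and other extracellular matrix genes, of the de novo DNA methyltransferases and of genes of insulin signalling, and they are reduced in activated hepatic stellate cells during liver fibrosis. The study's text also names them among the miRNAs that lower PGC-1α in hepatocytes, which is the reason for asking whether their level differs when PGC-1α is raised.

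The 3 guide strands are shown because they differ from each other at few bases, which bears on how far 3 probes can separate them. They are given 5′ to 3′ from RefSeq (GRCm38.p6), with the seed, bases 2 to 8, in capitals.
miR-29a: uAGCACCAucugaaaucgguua
miR-29b: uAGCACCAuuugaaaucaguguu
miR-29c: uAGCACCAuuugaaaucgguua
All share the seed, which 3 of 1679 mature mouse names in the table carry, and none outside the family. miR-29a and miR-29c match at 21 of 22 bases and differ by C10U, counted from the 5′ end with the base of miR-29a first. miR-29b has 1 base more, and over the 22 positions compared it differs from miR-29c by A18G, G21U and U22A, with the base of miR-29b first. From miR-29a to miR-29b the differences are C10U, G18A, U21G and A22U. How much each probe also reads the other guides was not tested.

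The guides come from 4 hairpins at a pair of loci, placed here by RefSeq coordinates since the array files name no genome build. miR-29a (chr6:31062673-31062694) and 1 copy of miR-29b (chr6:31063025-31063047) lie on the minus strand of chromosome 6, within no listed gene, between Gm40359 and the long non-coding RNA gene Lncpint. The other copy of miR-29b (chr1:195037091-195037113) and miR-29c (chr1:195037600-195037621) lie on the plus strand of chromosome 1, within the non-coding RNA gene A330023F24Rik, with Cd46 next to it. Both copies of miR-29b give the same guide, so its probe sums the loci. The passenger strands differ in their seeds, so their probes read separate sequences from the same hairpins, and they are shown for that reason.
miR-29a*: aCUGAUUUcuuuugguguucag
miR-29b*: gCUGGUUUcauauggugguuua
miR-29c*: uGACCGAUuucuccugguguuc
The array assigns miR-29b* to chromosome 6, and by that it was matched to the passenger of the chromosome 6 copy.

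Between 423 and 482 probes were detected per array, at a detection p of at most 0.01 against the negative controls, and raw array medians ran from 1758 to 2435. A probe was tested when it was detected on at least 1 array, which 513 probes were. The 4 hepatocyte markers examined, led by miR-122, were detected on all 10 arrays, and their summed normalized signal was 169271 to 176845 in WT and 173566 to 176575 in LivPGC-1α. Summed signals of the marker lists for striated muscle, endothelium, blood cells (leukocyte and erythroid), biliary epithelium and stellate cells also overlapped between genotypes. Quantile normalization fixes the signal at each rank, and some of these lists are led by probes of the top ranks. Normalized miR-122 had an SD of 0 in LivPGC-1α, and the endothelial sum had the same maximum, 106891, in both genotypes. Overlap of such sums therefore says little about cell content. The leukocyte miR-150, which the study names as increased in LivPGC-1α mice, changed by 0.40 (limma adjusted p 0.0864). Its groups did not overlap, as for 4.87% of all tested probes. The other leukocyte markers overlapped, with changes of -0.027 (miR-223), 0.027 (miR-142-3p), 0.14 (miR-142-5p) and 0.18 (miR-155). Thus 4 of 5 lay above 0, against 56.9% of all tested probes. The erythroid miR-486 changed by -0.25 (limma adjusted p 0.327), miR-451 by 0.0016 and the probes of miR-144 by 0.065 and -0.024. The part of these cell types in the results below was not tested. Some WT arrays stood apart from the rest over all tested probes. The SD of the deviations from the group mean was 0.37, 0.33 and 0.37 on the log2 scale on WT 1, WT 3 and WT 5, against 0.10 to 0.18 on the other arrays, and the 4 striated muscle markers summed to 85234 on WT 1 against 3924 to 5183 elsewhere. Changes, spreads, ratios and correlations of the guides are also given without these 3 arrays. That leaves WT 2 and WT 4 as the only WT arrays, so that fewer differences can pass a test there. The smallest exact p that a ratio can reach is also larger than with all arrays.

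All 3 guides were among the brightest miRNAs on every liver array. Each had the same detection p, 3.68e-38, on all 10 arrays. Ranked from the brightest of 655 probes, miR-29c held places 9 to 17, miR-29b places 14 to 21 and miR-29a places 49 to 58. Raw signals were 81.7% to 88.5% of the brightest probe of the same array for miR-29c, 81.2% to 86.6% for miR-29b and 60.5% to 65.6% for miR-29a. Probes differ in efficiency, so that this order is one of signals and not of molecules. Mean normalized signals of miR-122, miR-21, miR-451 and miR-126-5p lay close together, at 53687, 54360, 54566 and 54756. Whether signal still rises in proportion to the amount of miRNA at such brightness was not tested. The intervals and spreads below are therefore those of signals and do not bound the miRNA level. In bulk liver, fewer cells of a type and less RNA per cell cannot be told apart.

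Quantile-normalized signals of miR-29a were 35239, 34286, 34694, 36311 and 34992 on WT 1 to WT 5, and 37869, 34694, 34286, 34694 and 35672 on LivPGC-1α 1 to 5. LivPGC-1α 1 was the highest of all arrays, both genotypes shared their lowest value, and the groups overlapped. The means were 35104 ± 762 in WT and 35443 ± 1449 in LivPGC-1α (SD, n = 5 each). By limma the log2 change, LivPGC-1α minus WT, was 0.013 ± 0.033 (SE), with a 95% interval of -0.062 to 0.088 and an adjusted p of 0.945 over all probes tested. In percent of the WT level that interval runs from -4.19% to 6.30%. Without LivPGC-1α 1 the change was -0.011.

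Signals of miR-29b, the guide encoded at both loci, were 47058, 47199, 46966, 45741 and 45416 in WT and 47199, 46966, 46760, 46760 and 45741 in LivPGC-1α, in replicate order. WT 4, WT 5 and LivPGC-1α 5 were low, and the genotypes shared their highest value. The means were 46476 ± 831 and 46685 ± 558 (SD, n = 5 each). The log2 change was 0.0066 ± 0.023 (SE; 95% interval -0.046 to 0.059; limma adjusted p 0.963), which is -3.14% to 4.19% of the WT level.

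For miR-29c the signals were 47199, 48729, 47640, 47058 and 46966 in WT and 47388, 46760, 46966, 47388 and 47388 in LivPGC-1α. WT 2 was the highest, and every other array lay between 46760 and 47640. The means were 47518 ± 725 in WT and 47178 ± 296 in LivPGC-1α (SD, n = 5 each). The change was -0.010 ± 0.022 (SE; 95% interval -0.060 to 0.039; limma adjusted p 0.930), which is -4.04% to 2.74% of the WT level.

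**Figure D1:**
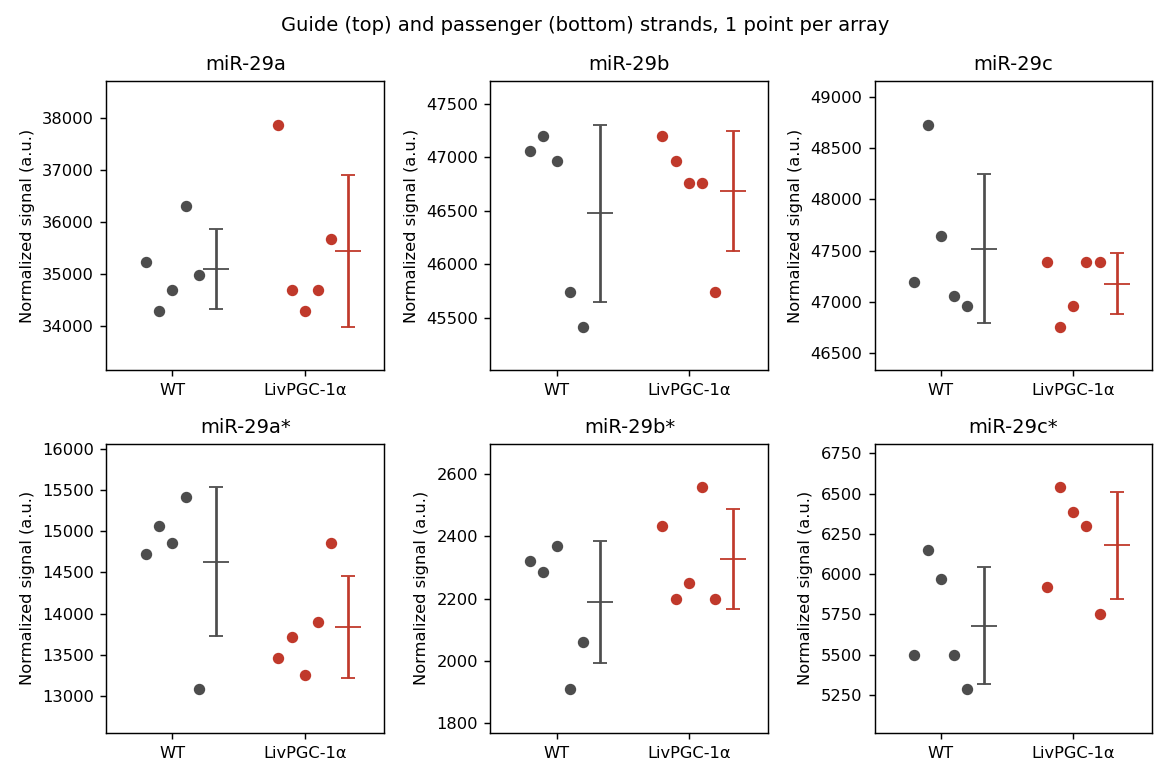
Quantile-normalized signal (arbitrary units) of the guide strands (top row) and passenger strands (bottom row) on each of 10 liver arrays, in replicate order from left to right, with mean ± SD of 5 arrays beside the points. The axes do not start at 0. In all 6 panels the WT and LivPGC-1α points overlap.

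None of the 3 guides was called at an adjusted p under 0.05, where 0.39% of the 513 tested probes were (2 probes), and none had an unadjusted p under 0.05, where 14.4% did (74 probes, 10.5% of all tested above WT and 3.9% below). None separated the genotypes without overlap, as 4.87% of tested probes did. The changes of miR-29a and miR-29b lay above 0 and that of miR-29c below, against 56.9% above 0 among all tested probes. Their median change was 0.0066 and that of all tested probes 0.012. The mean change of the 3 guides was 0.0032, against an SD of 0.018 for the mean of the 3 between arrays of 1 genotype. Without WT 1, WT 3 and WT 5 together the changes of miR-29a, miR-29b and miR-29c were 0.0055, 0.0073 and -0.021, with limma adjusted p-values of 0.982, 0.958 and 0.834.

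The spread of the guides between arrays of 1 genotype was small. The SD within genotypes was 0.046 for miR-29a, 0.022 for miR-29b and 0.017 for miR-29c on the log2 scale, and 10.5%, 5.26% and 2.73% of tested probes had a smaller one. Without WT 1, WT 3 and WT 5 it was 0.057, 0.021 and 0.017. Other probes at that signal were alike in this. The 39 tested probes with a mean signal over 40000, miR-29b and miR-29c among them, had a median SD of 0.018, against 0.11 for the other 474, and a median absolute change of 0.010 against 0.072. Quantile normalization gives each probe the mean signal of its rank. A step of 1 rank was worth 0.0086 on the log2 scale on average between places 9 and 22, where miR-29b and miR-29c lay, and 0.017 between places 40 and 65, where miR-29a lay.

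**Figure D2:**
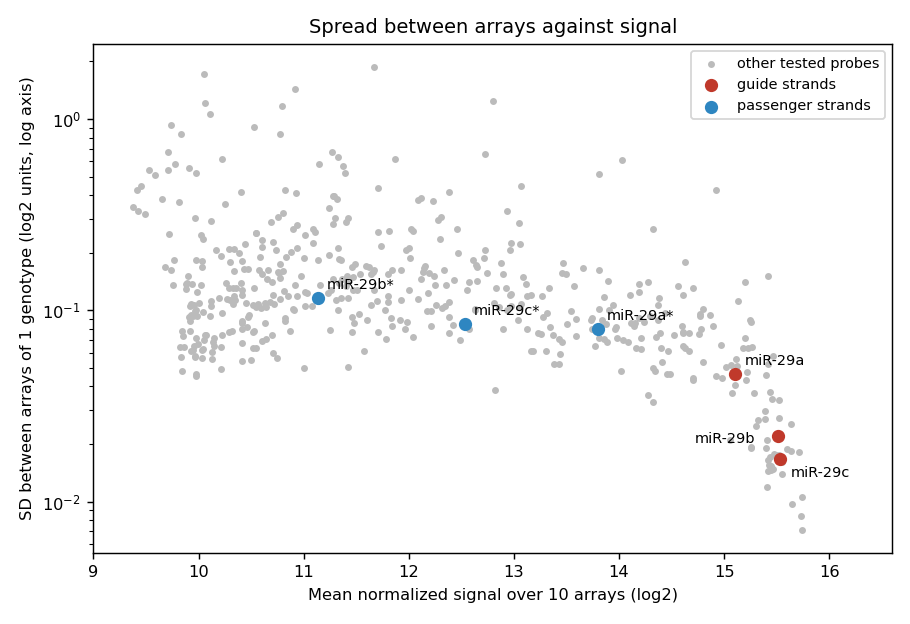
Mean normalized signal over 10 arrays (log2, horizontal) against the SD between arrays of 1 genotype (log2 units, vertical, log axis) for the 513 tested probes. The guide strands sit at the bright end, where the SD of all probes narrows, with 0.046 for miR-29a, 0.022 for miR-29b and 0.017 for miR-29c.

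The size of the change depended on how arrays were scaled to each other. Raw signals were 30269 to 36926 in WT and 34978 to 37854 in LivPGC-1α for miR-29a, 40853 to 49091 and 45933 to 49869 for miR-29b, and 40909 to 50166 and 47466 to 49813 for miR-29c. WT 1 and WT 4 were the lowest 2 arrays for each guide. Their raw medians were 1917 and 1758, and LivPGC-1α 5, with a median of 1916, was the third lowest for each guide but lay well above them, at 34978 for miR-29a, 45933 for miR-29b and 47466 for miR-29c. With no scaling the changes were 0.086, 0.084 and 0.081 for miR-29a, miR-29b and miR-29c, each with a limma adjusted p of 0.748. With the 75th percentile of all probes as the scale, they were 0.17 for each guide, and all 3 passed the test (adjusted p 0.0466, 0.0405 and 0.0405). At that setting 15.6% of tested probes were called (80 probes), and the median change was 0.075 over all tested probes and 0.18 over the 39 bright ones. With the 75th percentile of the probes detected on all 10 arrays the changes were 0.038, 0.037 and 0.034, none of them called (adjusted p 0.692 for each). Relative to the median of all tested probes the mean of the 3 guides lay at 0.095 with either percentile or no scaling, and at -0.0086 after quantile normalization. The percentiles shift all probes of an array alike on the log2 scale, so that the value of 0.095 is the same by construction in these settings.

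**Figure D3:**
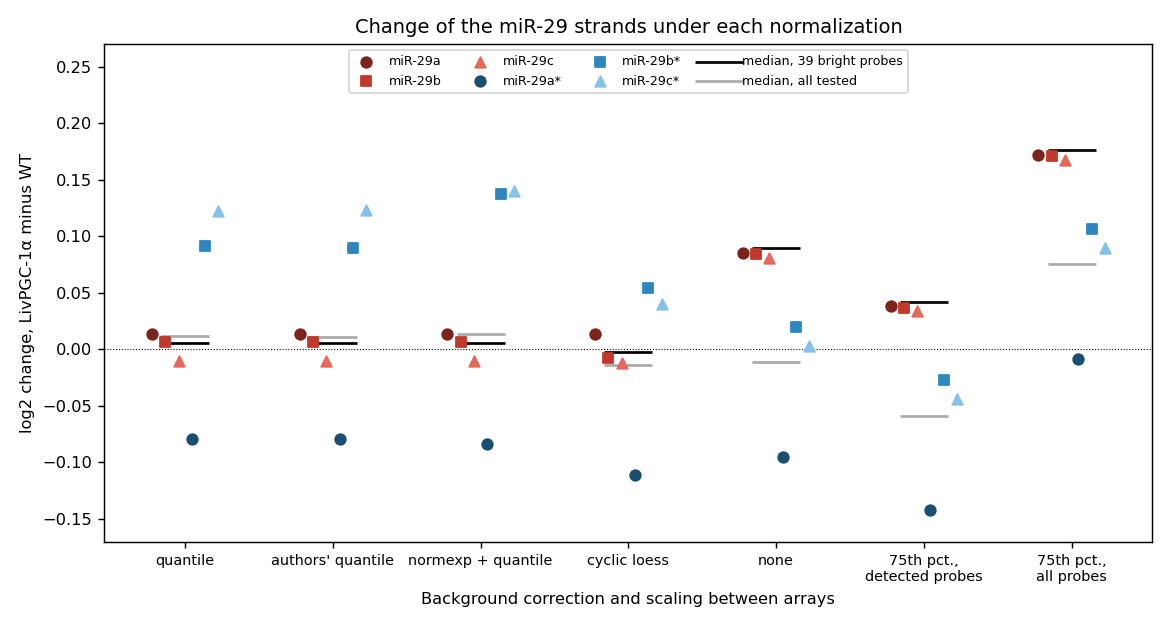
Log2 change, LivPGC-1α minus WT (vertical), of each guide and passenger strand under 7 processing settings that differ in background correction or in the scaling between arrays (horizontal), with bars for the median of the 39 bright probes (black) and of all tested probes (grey). Guides lie near 0 after quantile normalization or cyclic loess and at 0.17 when scaled to the 75th percentile of all probes, where the bright probes lie at 0.18.

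The ratios between guides on the same array, which do not move with a factor common to the whole array, overlapped between the genotypes. On the log2 scale the ratio of miR-29a to miR-29b was -0.40 ± 0.051 in WT and -0.40 ± 0.057 in LivPGC-1α (SD, n = 5 each), a difference of 0.0066 ± 0.034 (SE). An exact two-sided permutation test gave p = 0.810, where 0.00794 is the smallest p that 5 against 5 allows. For miR-29a to miR-29c the difference was 0.023 ± 0.032 (exact p = 0.492), and for miR-29b to miR-29c, both encoded on chromosome 1, it was 0.017 ± 0.013 (exact p = 0.262). Adjusted over the 3 pairs, the p-values were 0.810, 0.738 and 0.738. The first of these differences turned sign, to -0.014 at the lowest, when any one of WT 2, WT 3, LivPGC-1α 1 or LivPGC-1α 5 was left out. Without WT 1, WT 3 and WT 5 together the 3 differences were -0.0018, 0.026 and 0.028 (adjusted exact permutation p of 0.952, 0.952 and 0.714).

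After quantile normalization no pair of guides passed the test of covariation from array to array. Over the 10 arrays, Pearson's r was -0.10 for miR-29a and miR-29b (permutation p = 0.802, Spearman's rho -0.15, p = 0.678) and -0.17 for miR-29a and miR-29c (permutation p = 0.594, rho -0.047, p = 0.899). miR-29b and miR-29c gave 0.38 (permutation p = 0.289, rho 0.46, p = 0.183). Adjusted over the 3 pairs, every p for r was 0.802, and those for rho were 0.899, 0.899 and 0.549. Leaving out the 2 arrays farthest from the median gave r of -0.58, -0.29 and 0.39, and deviations from the genotype means gave -0.13, -0.13 and 0.47. On the 7 arrays left without WT 1, WT 3 and WT 5, r was -0.17, -0.19 and 0.30 (exact permutation p of 0.749, 0.671 and 0.557). Without scaling, r was 0.98, 0.97 and 0.99 for the same pairs (adjusted permutation p of 0.000135, 0.00022 and 0.00012). Over all pairs of the 39 bright probes the median r was 0.97 without scaling and 0.22 after quantile normalization, so that high values without scaling were shared by bright probes at large.

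Ordered by likeness of their deviations from the genotype means over the 10 arrays, among 407 other probes detected on all arrays, the guides did not place each other first. Nearest to miR-29a were a probe with a provisional solexa name (r = 0.95), miR-18a (0.85) and miR-297a (0.84), while miR-29c came at place 276 and miR-29b at place 280. For miR-29b the nearest were miR-361 (0.75), miR-342-3p (0.73) and let-7g (0.73), with its own passenger miR-29b* at place 4 (0.73), miR-29c at place 48 and miR-29a at place 279. miR-29c lay nearest to miR-196a (0.86), miR-375 (0.84) and let-7b (0.84), with miR-29b at place 81 and miR-29a at place 294. The arrays share 1 chip and 1 scaling, and these likenesses are a description without a test.

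The passenger strands gave weaker signals, ranked 125 to 140 for miR-29a*, 197 to 216 for miR-29c* and 300 to 338 for miR-29b*, and, after quantile normalization, changes that lay farther from 0 than those of the guides. With the 75th percentile of all probes as the scale the guides (0.17 each) lay farther from 0 than miR-29a* (-0.0086), miR-29b* (0.11) and miR-29c* (0.090). No passenger was called. Signals of miR-29a* were 14725, 15064, 14860, 15420 and 13080 in WT and 13460, 13718, 13252, 13901 and 14860 in LivPGC-1α. WT 5 was the lowest of all arrays and LivPGC-1α 5 matched WT 3, with the remaining WT arrays above the remaining LivPGC-1α ones. Its log2 change was -0.079 ± 0.050 (SE; limma adjusted p 0.511), and without WT 5 it was -0.12 (adjusted p 0.204).

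Signals of miR-29b*, from the chromosome 6 copy, were 2321, 2284, 2368, 1909 and 2061 in WT and 2432, 2200, 2251, 2557 and 2200 in LivPGC-1α. WT 4 and WT 5 were low, as they were for the guide miR-29b. The log2 change was 0.091 ± 0.070 (SE; limma adjusted p 0.601). Guide and passenger correlated over the 10 arrays with r = 0.72 (permutation p = 0.0181, adjusted over 3 guide and passenger pairs 0.0543; rho 0.63, p = 0.0551, adjusted 0.165) and with 0.76 without the 2 farthest arrays. That r was 0.57 without scaling, 0.14 with the 75th percentile of all probes and 0.40 with cyclic loess (permutation p of 0.104, 0.696 and 0.256), and 0.65 without WT 1, WT 3 and WT 5 (exact permutation p = 0.108). The other guide and passenger pairs gave r of 0.011 for miR-29a (permutation p = 0.977, adjusted 0.977) and 0.13 for miR-29c (permutation p = 0.764, adjusted 0.977). Without scaling the r of miR-29c with miR-29c* was 0.73 (permutation p = 0.0118, adjusted 0.0354), and without the 2 farthest arrays 0.64 (permutation p = 0.0875). With the 75th percentile of all probes it was 0.26 and with cyclic loess -0.21.

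For miR-29c*, the passenger with the smallest p after quantile normalization, signals were 5494, 6149, 5972, 5494 and 5284 in WT and 5921, 6540, 6385, 6300 and 5750 in LivPGC-1α. LivPGC-1α 2, 3 and 4 lay above every WT array, and LivPGC-1α 1 and 5 fell within the WT range. The change was 0.12 ± 0.053 on the log2 scale (SE; 95% interval 0.0029 to 0.24), with a limma p of 0.0456 that became 0.327 after adjustment. At that unadjusted level 10.5% of tested probes lay above WT. With the 75th percentile of the probes detected on all arrays as the scale, the change was -0.044, and there, with cyclic loess and with no scaling, miR-29a* lay farther from 0 (-0.14, -0.11 and -0.095).

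The ratio of guide to passenger on the same array, examined after the values had been seen, differed by 0.092 ± 0.056 for miR-29a (log2, SE; exact permutation p = 0.135), -0.085 ± 0.064 for miR-29b (exact p = 0.246) and -0.13 ± 0.050 for miR-29c (exact p = 0.0476). Adjusted over the 3 ratios, these p-values were 0.202, 0.246 and 0.143. With either 75th percentile or no scaling, which give the same ratios by construction, the differences for miR-29b and miR-29c were 0.064 and 0.078, the opposite sign. Cyclic loess gave -0.062 and -0.052. For miR-29a the difference kept its sign and was larger, at 0.18 with either percentile or no scaling (adjusted exact permutation p 0.0714), and it passed the threshold with cyclic loess (0.12, adjusted p 0.0476) and without WT 5 (0.14, adjusted p 0.0476). Without WT 1, WT 3 and WT 5 the 3 differences were 0.15, -0.15 and -0.11 (adjusted exact permutation p 0.238 for each).

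Other miRNAs that the study names as regulators of PGC-1α or PGC-1β were set beside the guides. Of 9 such miRNAs, 8 were tested, and 2 had a change above 0 and 6 below, against 56.9% of all tested probes above 0. Of the 8, 1 was called, against 0.39% of all tested probes. Their median change was -0.023, against 0.012 over all tested probes. The called one was miR-34a, a p53-induced miRNA that represses SIRT1, the deacetylase that activates PGC-1α. Its signal fell from 8337 ± 565 in WT to 4927 ± 768 in LivPGC-1α (SD, n = 5 each), a log2 change of -0.77 ± 0.10 (SE; limma adjusted p 0.0143). This call was lost without WT 2 (limma adjusted p 0.0573), without WT 5 (0.0547) and without LivPGC-1α 1 (0.0510). The change stayed between -0.85 and -0.71 when 1 array was left out. The call was also lost without WT 1, WT 3 and WT 5 together (0.254) and with the replicate number as a block (0.107). With chip position as a linear term the change was -0.58 ± 0.21 (SE, limma adjusted p 0.696). Position runs with genotype, so that the loss of the call there says little. By qPCR, the study reports miR-34a as higher in mice that overexpressed PGC-1β in the liver than in LivPGC-1α. Its text states no change of miR-34a between LivPGC-1α and WT. The remaining 7 had changes of -0.11 for miR-221, -0.037 for miR-25, -0.033 for miR-98, -0.013 for let-7i, -0.0087 for miR-23a, 0.016 for miR-222 and 0.024 for miR-19b, none of them called. Under other scalings the signs of miR-25, miR-98, let-7i, miR-23a and miR-222 turned. miR-696 was detected on no array.

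**Figure D4:**
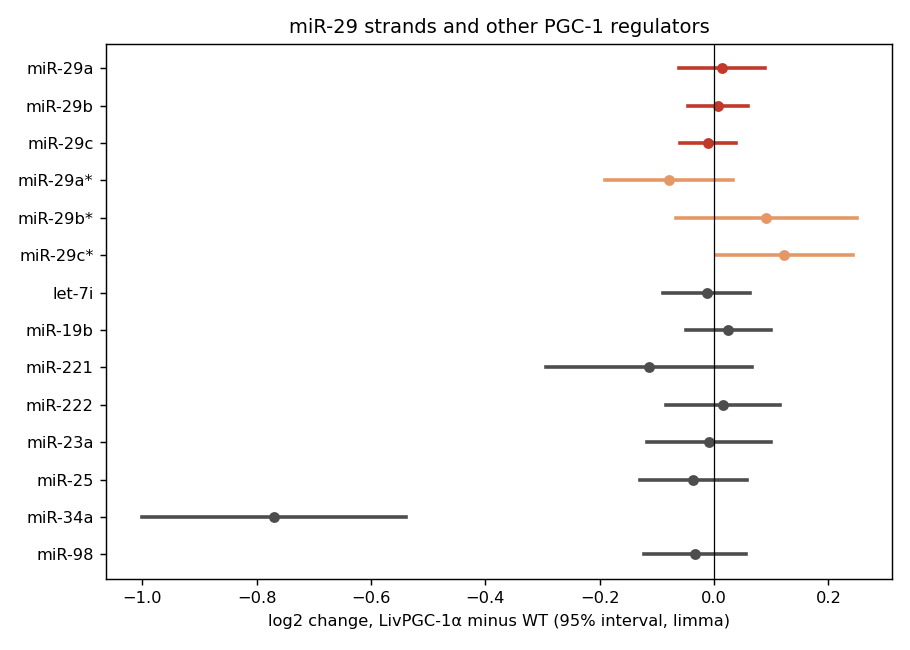
Log2 change, LivPGC-1α minus WT (horizontal, points), with 95% limma intervals (lines) for the miR-29 guides (red), their passengers (orange) and the tested miRNAs that the study names as PGC-1 regulators (grey). The guides lie between -0.010 and 0.013, and miR-34a lies apart at -0.77.

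Further lists covered the roles for which miR-29 is known, and the counts below are descriptions without a list test, to be read against 0.39% of all tested probes called and 56.9% above 0. Among 17 tested probes of fibrosis and stellate cell miRNAs, 9 changes were above 0 and 8 below, with a median of 0.0016, and miR-34a was the one called. The brightest, the profibrotic miR-21, changed by 0.0016. Of 13 tested probes for insulin signalling and glucose metabolism, 4 lay above 0 and 9 below with a median of -0.016, miR-34a again being the one called, and the brightest, the erythroid miR-451, changed by 0.0016. The changes of miR-21 and miR-451 depended on the scaling. They were -0.046 and -0.050 with cyclic loess, and 0.14 for each with the 75th percentile of all probes. The list drawn up around DNA methyltransferases gave 8 of 11 tested probes above 0, a median of 0.014 and no call. Whether each of its members targets these enzymes directly was not tested. The smallest p there was that of miR-294 (change 0.083, limma adjusted p 0.382), and the brightest, a probe of miR-101a, changed by 0.014. With the 75th percentile of all probes that probe changed by 0.19 (limma adjusted p 0.0405), where 15.6% of tested probes were called.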

How the data were processed

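Total RNA (400 ng) from each liver was profiled by the authors with Illumina's miRNA kit on Universal BeadChips, read on an iScan scanner and processed in GenomeStudio (version not given in the sources used here). The authors deposited average bead intensity per probe, without background subtraction or scaling, and a detection p-value against negative controls. A second table deposited by the authors holds their quantile-normalized intensity, of which 97.6% to 99.8% of values per array lay within 1% of the values computed here. Those values, quantile-normalized over 655 probes, floored at 1 and taken to log2, were fitted with limma (3.58.1, R 4.3.3; lmFit, eBayes, no covariate) for 513 probes detected on at least 1 array, with Benjamini-Hochberg adjustment over all of them. The fit was tested on simulated data. The study's methods name a test for comparisons of 3 groups and do not say which test the arrays had. The number of arrays limits the precision. Single ratios were compared by exact permutation tests and correlations by 100000 permutations.

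Named are the guides, their passengers, the regulators of PGC-1 that the study lists, the member of each other list with the smallest p and the brightest one, and the 3 probes most like each guide. Members, lists and the arrays left out together were chosen with earlier results of these data known. Alternatives covered background correction, scaling, detection filter, variance model, array weights, chip position, a replicate block and leaving out arrays. Sequences and coordinates are from RefSeq (GRCm38.p6), matched by miRNA name for 6 of 6 probes.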

Additional observations from a re-analysis of the deposited data

Results flagged for a closer look

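Among the 24 groups of 5 arrays formed by the signals of the guides and passengers and by their ratios, 1 held an array far from the rest. The passenger miR-29a* on WT 5 had a log2 signal of 13.68, against 13.85 to 13.91 on the other WT arrays, a gap of 0.72 of the range of the group. Chance flags about 1 in 20 such groups, or 1.2 of 24.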

How the results depend on the processing

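In all, 25 alternatives were run for each change and 18 for each ratio. Among the 18, both percentiles and no scaling give the same ratios by construction. Of the 25 alternatives, the 3 guides remained uncalled in all but 1, the 75th percentile of all probes (changes of 0.172, 0.171 and 0.168 for miR-29a, miR-29b and miR-29c). Signs turned for miR-29b with cyclic loess (-0.0081) and for miR-29c with the 75th percentile of detected probes (0.034), no scaling (0.081) and a linear term for chip position (0.0011). The mean of the guides was 0.036, 0.170, 0.084 and 0.036 with the percentile of detected probes, of all probes, no scaling and the chip position term. Leaving out 1 array gave -0.011 to 0.025 for miR-29a, -0.0013 to 0.014 for miR-29b, -0.015 to -0.0015 for miR-29c, -0.0067 to 0.0076 for their mean and -0.014 to 0.025 for the ratio of miR-29a to miR-29b. Without WT 1, WT 3 and WT 5 that ratio was -0.0018. The cause of these turns was not tested.

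Calls over all probes (2) numbered 80 with the percentile of all probes, 1 with cyclic loess, no scaling or a trended robust variance, 0 with the chip position term, the replicate block or without WT 1, WT 3 and WT 5, and 0 to 4 with 1 array left out. Counts at an unadjusted p under 0.05 (74) were 168 with the percentile of all probes, 34 with no scaling, 36 with chip position and 61 to 82 with 1 array left out. Chip position runs with genotype, so that fewer differences can pass a test with that term.

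With the replicate number as a block, the guides had limma adjusted p-values of 0.963, 0.971 and 0.963, miR-29c* one of 0.208, and miR-34a lost its call (adjusted p 0.107). Deviations of same-numbered arrays correlated at -0.15, 0.33, -0.13, -0.12 and -0.37. These values gave no sign of pairing by number but cannot exclude it, and the labels do not state whether the numbers pair the samples.

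Correlations of miR-29a with miR-29b, of miR-29a with miR-29c and of miR-29b with miR-29c were 0.97, 0.97 and 0.98 with the percentile of detected probes, 0.98, 0.98 and 0.99 with that of all probes, 0.98, 0.97 and 0.99 with no scaling, and 0.50, 0.29 and 0.53 with cyclic loess. Adjusted permutation p-values were 3e-05 for each pair with the percentile of detected probes and 1e-05, the smallest the permutations can give, with that of all probes, and 0.207, 0.425 and 0.207 with cyclic loess. The median r over pairs of the 39 bright probes was 0.95, 0.97, 0.97 and 0.40 at these settings, in the order given. With cyclic loess, leaving out the 2 arrays farthest from the median gave r of -0.31, -0.94 and 0.48 for the same pairs. Their unadjusted permutation p-values were 0.464, 0.0006 and 0.234. LivPGC-1α 1 was left out for each pair, so that the values with all arrays depended on few arrays.

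With the percentile of detected probes, miR-29b* changed by -0.027, miR-29c* by -0.044, miR-222 by -0.090, miR-25 by 0.0077 and miR-294 by -0.036. With that of all probes, miR-23a changed by 0.095, let-7i by 0.13, miR-25 by 0.14 and miR-98 by 0.011. With no scaling, miR-222 changed by -0.042, miR-23a by 0.0081, let-7i by 0.047 and miR-25 by 0.055. Cyclic loess gave -0.044 for miR-222, -0.046 for miR-21 and -0.050 for miR-451, and array weights gave -0.0018 for miR-451. Without WT 1, WT 3 and WT 5, miR-19b changed by -0.014, miR-23a by 0.025 and miR-451 by -0.0050. With 1 array left out, the range was -0.011 to 0.044 for miR-222, -0.027 to 0.029 for miR-23a, -0.030 to 0.014 for let-7i, -0.0019 to 0.0066 for miR-21 and -0.0030 to 0.0046 for miR-451. The ratios of guide to passenger for miR-29b and miR-29c differed by 0.064 and 0.078 with either percentile or no scaling.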
